A study of Mus musculus with 12 samples.

Results

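Glutamatergic synaptic transmission genes were examined in BV2 cells, an immortalized mouse microglial line, with and without an shRNA against Anxa2. The members were the 36 of the 21834 genes in the deposited table that the table's own Gene Ontology column annotates to glutamatergic synaptic transmission. The annotation was chosen by its enrichment among genes with higher counts in the control line after OGD/R, the deprivation of oxygen and glucose followed by their return, so the values of that comparison are given as a description, with no test. Of the 36 members, 22 reached at least 0.5 CPM (counts scaled to the library total) in at least 3 of the 12 libraries and entered the fits, and 14 did not. Of these 14, 5 (Grik2, Cdh8, Shc3 and Dcdc2a among them) had 0 counts in every library and 9 had at most 17 counts in a library. Just inside the limit were Unc13b, Grin1 and Adora2a, whose third-highest library was at 0.674, 0.684 and 0.735 CPM of the total, and just outside was Slc17a8 at 0.490 CPM. Glutamate is the main excitatory transmitter of the brain. It is loaded into vesicles by vesicular transporters, released after vesicle priming and fusion, and sensed by ionotropic (AMPA, NMDA, kainate and delta) and metabotropic receptors. Microglia form no such synapses, but they exchange cystine for glutamate and carry receptors for transmitters, and many genes of the annotation have roles outside the synapse.

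Stable lines were made with lentivirus and puromycin selection and expressed a control shRNA (shCtrl) or 1 shRNA against Anxa2 (shAnxa2). Each line was sampled untreated (CTRL) or after OGD/R (OGDR: 4 h without glucose at 1% O2, then, per the labels, 12 h of reoxygenation; the methods of the paper give a longer reoxygenation). Each of the 4 groups held 3 libraries, all from cells that carried a lentiviral shRNA and had been selected with puromycin, and each arm is 1 selected line, so line and knockdown cannot be told apart. The groups follow the sample titles, which the treatment label matches, whereas the cell type label follows the treatment and marks both OGDR groups as Anxa2 knockdown.

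Library totals ran from 19521877 to 27288843 counts. Anxa2, the targeted gene, had 171.7 ± 6.36 CPM without and 278.9 ± 24.3 CPM with OGDR in the title in shCtrl (SD, n = 3), and 40.4 ± 4.86 and 19.6 ± 1.26 CPM in shAnxa2, below shCtrl as the line titles say. All 14 microglial markers listed passed the filter, with a summed level of 1889 to 2303 CPM per library. By the mean over the 12 libraries, Csf1r (485 CPM), Cd68 (386), Spi1 (312) and Ptprc (303) led. Itgam, Tmem119, Cx3cr1, Aif1, P2ry12 and C1qa lay at 1.07 to 14.1 CPM, below the neuronal marker Camk2a at 21.5, and C1qa reached the minimum in only 8 libraries. Of 10 neuronal markers, 3 passed, with a summed level of 17.7 to 26.9 CPM, nearly all of it Camk2a, and Snap25, Nefl and Stmn2 had 0 counts in every library. Of 7 astrocyte markers, 2 passed (19.5 to 41.2 CPM, mostly Aldoc, which encodes a glycolytic enzyme), and Aqp4 was at 0. Of 6 oligodendrocyte markers, 2 passed (4.08 to 6.71 CPM), and Mog and Olig1 were at 0.

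The shAnxa2 libraries moved against the shCtrl libraries under the same treatment labels. Over the 11626 genes tested, 82.0% had log2 fold changes of opposite sign in the 2 lines, with Pearson's r = -0.80 across genes, which are not independent replicates; the lines share no library. Of 22 textbook hypoxia-response genes, a list chosen after values were seen, 20 were tested. Their median log2 fold change was 0.55 in shCtrl and -0.55 in shAnxa2. In shAnxa2-OGDR 14 were called lower and 1 higher than in shAnxa2-CTRL (26.8% and 28.2% of all tested genes were). Ndrg1, a hypoxia-induced gene, had means of 10.8, 72.2, 48.8 and 8.40 CPM in shCtrl-CTRL, shCtrl-OGDR, shAnxa2-CTRL and shAnxa2-OGDR, and Bnip3, a mitophagy receptor gene, had 67.1, 215.5, 181.7 and 39.7 CPM. By these genes, the libraries labelled shAnxa2-CTRL lay near shCtrl-OGDR and those labelled shAnxa2-OGDR near shCtrl-CTRL. Whether the treatment titles of the shAnxa2 libraries are exchanged was not tested. Every direction below is that of the titles, and an exchange would turn the sign of each difference between the shAnxa2 groups and pair the groups of the 2 lines differently. The shCtrl groups hold no shAnxa2 library, but both lines share the scaling and the spread of 1 fit.

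Sequences are shown first for the receptor subunits on which the values turn, as the 250 bases before the transcription start given by RefSeq (GRCm38.p6), 5′ to 3′ on the gene's strand, for reading beside the values of Grin1, Grik4 and Grik5. Capitals mark every ACGTG or GCGTG, the core letters of hypoxia response elements, on either strand.
Grin1, chr2:25319188-25319437, minus strand: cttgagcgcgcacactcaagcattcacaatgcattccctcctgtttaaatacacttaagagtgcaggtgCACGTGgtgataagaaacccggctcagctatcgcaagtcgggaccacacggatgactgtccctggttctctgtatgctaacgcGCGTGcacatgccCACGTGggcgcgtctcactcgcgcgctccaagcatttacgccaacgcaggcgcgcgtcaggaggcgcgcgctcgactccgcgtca
Grik4, chr9:42944372-42944621, minus strand: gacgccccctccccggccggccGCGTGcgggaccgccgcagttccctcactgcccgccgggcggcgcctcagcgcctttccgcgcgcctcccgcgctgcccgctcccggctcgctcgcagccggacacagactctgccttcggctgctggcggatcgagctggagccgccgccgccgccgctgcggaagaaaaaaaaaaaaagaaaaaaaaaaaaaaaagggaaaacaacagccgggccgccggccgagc
Grik5, chr7:25072370-25072619, minus strand: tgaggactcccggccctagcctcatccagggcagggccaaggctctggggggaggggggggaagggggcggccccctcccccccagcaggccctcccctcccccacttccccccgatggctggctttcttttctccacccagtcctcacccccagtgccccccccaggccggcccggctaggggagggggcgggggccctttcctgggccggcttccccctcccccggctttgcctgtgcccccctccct
The Grin1 window held 5 matches, of which 4 were both strands of its 2 CACGTG palindromes, the letters also read as an E-box. The Grik4 window held 1 match and the Grik5 window 0. Of 32851 RefSeq promoter windows of this length, 38.6% held at least 1 match, and a match is only a description of the letters. RefSeq windows were at hand for 14 of the 22 tested members, and 9 of their 18 windows held a match. Napa held 8 matches and Clcn3 5, while Aph1b, Aph1c and P2rx1 held 0.

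Grin1 encodes the obligatory subunit of NMDA receptors (ENSMUSG00000026959, chromosome 2, 25181193 to 25209199, minus strand in the table's coordinates, mm39 by the processing notes). It had 0, 1 and 0 counts in shCtrl-CTRL, 16, 22 and 17 in shCtrl-OGDR, 11, 14 and 15 in shAnxa2-CTRL and 1, 1 and 0 in shAnxa2-OGDR. The 6 libraries of shCtrl-OGDR and shAnxa2-CTRL all lay above the other 6, so that no 2 groups of a treatment pair overlapped. The summed counts were 55 in shCtrl-OGDR and 1 in shCtrl-CTRL, 60.5 times as high after scaling by library size, a ratio that rests on that 1 count. In shAnxa2 cells the scaled summed counts were 19.7 times as high in the libraries labelled CTRL as in those labelled OGDR. The exact 95% interval of the latter was 5.11 to 168, for counting error only. Grin1 was lower in shAnxa2-OGDR than in shAnxa2-CTRL by 4.08 on the fitted log2 scale (standard error 0.72). Every adjusted p here is from the edgeR quasi-likelihood test with Benjamini-Hochberg adjustment. Fitted folds of a gene at 0 to 2 summed counts depend on the prior count. Even at its highest, Grin1 was at 0.871 CPM, and it passed the filter only through the groups where it was high. The 3 shCtrl-OGDR libraries alone met the filter, but they belong to the comparison that chose the annotation, and the other high group was shAnxa2-CTRL. With no filter the shAnxa2 value was -4.11. Grin1 is counted among the members called below, but its difference is a description. Its neighbour Lrrc26, 1 base away on the other strand, had mean levels of 0.0366, 0, 0 and 0 CPM in the 4 groups, and Man1b1, the next gene on the other side, had log2 fold changes of -0.13 and 0.23 in the shCtrl and shAnxa2 lines.

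The Grin2 partner subunits of Grin1 were nearly unread, while Grin3a and Grin3b had more counts but also failed the filter. Grin2d, the other NMDA receptor member, had at most 6 counts in a library, and its gene body overlaps that of Kdelr1. Outside the annotation, Grin2a, Grin2b and Grin2c had at most 2, 4 and 2 counts, Grin3a at most 16 and Grin3b at most 13 counts. None of these 6 genes passed the filter. The 4 AMPA receptor genes Gria1 to Gria4, which are not members, also failed it, with Gria2 and Gria4 at 0 counts throughout and at most 6 counts for Gria3.

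Among kainate and delta receptor genes, 3 of 6 members passed. Grik4, which encodes a high-affinity kainate receptor subunit, was at 2.05, 1.80 and 1.47 CPM in shCtrl-CTRL and 4.30, 3.86 and 4.05 CPM in shCtrl-OGDR. It was at 3.18, 3.61 and 3.30 CPM in shAnxa2-CTRL and 2.96, 1.87 and 1.75 CPM in shAnxa2-OGDR. The groups of each line were apart, in opposite directions. The log2 fold change was 1.20 (standard error 0.19) in shCtrl, and Grik4 fell by 0.63 (standard error 0.20, adjusted p = 0.0101 from edgeR) in shAnxa2-OGDR. That call was lost without shAnxa2-OGDR replicate 2 (adjusted p = 0.0573) or replicate 3 (adjusted p = 0.0541).

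Grik5, the second high-affinity kainate subunit gene, was at 0.836, 0.989 and 0.735 CPM in shCtrl-CTRL and 3.17, 2.79 and 2.41 CPM in shCtrl-OGDR. It was at 2.79, 1.40 and 1.15 CPM in shAnxa2-CTRL and 1.22, 1.15 and 1.46 CPM in shAnxa2-OGDR. Replicate 1 of shAnxa2-CTRL stood above the rest of its line, and the groups of that line overlapped. The log2 fold change was 1.71 (standard error 0.28) in shCtrl and -0.46 (standard error 0.29) in shAnxa2, which did not pass the test (adjusted p = 0.193 from edgeR). Without shAnxa2-CTRL replicate 1 the shAnxa2 value was 0.0072 (adjusted p = 0.986), and without shAnxa2-CTRL replicate 3 it was -0.71 and was called (adjusted p = 0.0470). The nearest gene, Zfp574 on the other strand, 221 bases away, had log2 fold changes of -0.26 and 0.36.

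Grid1, which encodes a delta receptor that binds synaptic organizers, ran from 0.513 to 0.845 CPM in shCtrl-CTRL, 0.939 to 1.43 CPM in shCtrl-OGDR, from 0.770 to 1.55 CPM in shAnxa2-CTRL and from 0.816 to 1.02 CPM in shAnxa2-OGDR. The fitted change was 0.78 (standard error 0.31) in shCtrl and -0.34 (standard error 0.32, adjusted p = 0.377 from edgeR) in shAnxa2. Grik2 had 0 counts in every library and Grik3 had 1 count in 1 library, so the high-affinity subunit genes were read without the low-affinity subunits with which they form channels; Grik1, which is not a member, was also at 0. A count of 0 in a library allows up to 3 counts.

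**Figure D1:**
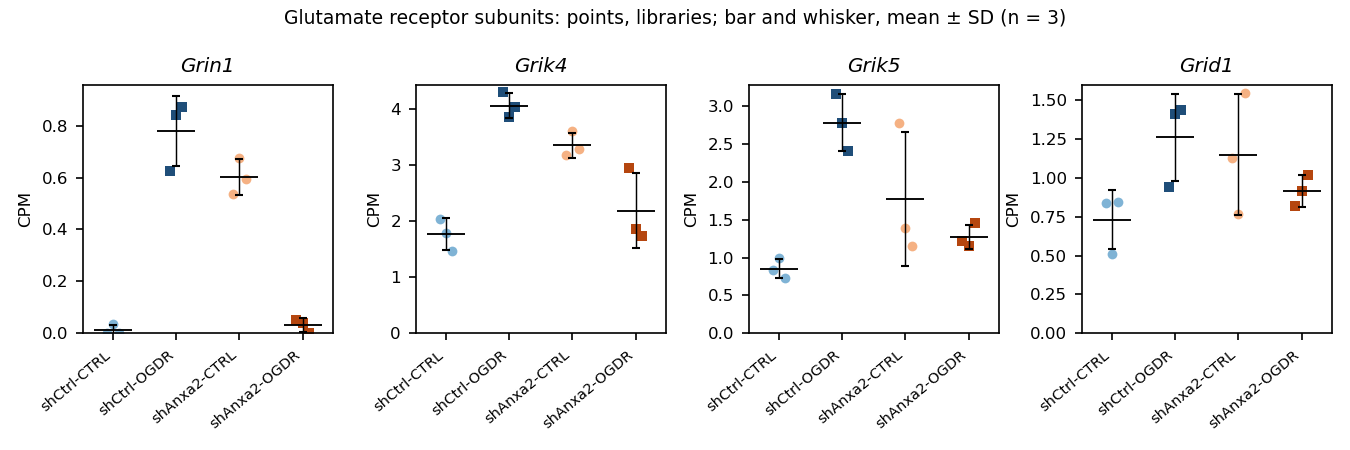
CPM of Grin1, Grik4, Grik5 and Grid1 on linear axes, with 1 point per library in the 4 groups and the mean ± SD (n = 3) in black. Grin1, Grik4 and Grik5 were highest in the 3 shCtrl-OGDR libraries on average, and the shAnxa2 libraries labelled OGDR had lower means than those labelled CTRL.

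Metabotropic receptors and vesicular transporters gave almost no reads. Grm3 and Grm8, the metabotropic members, had at most 3 and 4 counts, and the 6 metabotropic receptor genes outside the annotation had at most 2. Slc17a7 (VGLUT1) had at most 4 counts, and Slc17a6 (VGLUT2), not a member, at most 2. Slc17a8 (VGLUT3) lay just outside the filter, with at least 0.5 CPM in 2 libraries. It had 10, 7 and 15 counts in shCtrl-CTRL, 1, 5 and 0 in shCtrl-OGDR, 10, 6 and 4 in shAnxa2-CTRL and 17, 5 and 9 in shAnxa2-OGDR. The 3 shCtrl-OGDR libraries lay below the 3 shCtrl-CTRL libraries, with 6 against 32 summed counts, 4.85 times as high in the latter after scaling. The shAnxa2 groups overlapped. The direction of Slc17a8 in shCtrl was opposite to that of Grin1, Grik4 and Grik5.

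Vesicle priming and fusion genes ran from nearly unread to among the most abundant members. Napa, which encodes the alpha-SNAP cofactor that recycles SNARE complexes in every cell, was at 166 ± 4.38, 175 ± 7.81, 131 ± 8.23 and 138 ± 7.97 CPM in shCtrl-CTRL, shCtrl-OGDR, shAnxa2-CTRL and shAnxa2-OGDR (SD, n = 3). Its groups overlapped in both lines, with log2 fold changes of 0.07 (standard error 0.05) in shCtrl and 0.07 (standard error 0.05, adjusted p = 0.261 from edgeR) in shAnxa2, and the shAnxa2 libraries lay below the shCtrl libraries under either treatment label. Napb, the brain-enriched beta-SNAP gene, was far lower at 2.73, 1.88, 1.88 and 1.79 CPM and had log2 fold changes of -0.53 (standard error 0.21) and -0.07 (standard error 0.23, adjusted p = 0.811 from edgeR).

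Unc13a encodes Munc13-1, the factor that primes vesicles at glutamatergic terminals. It was at 8.94, 10.4 and 9.19 CPM in shCtrl-CTRL and 15.0, 16.6 and 15.9 CPM in shCtrl-OGDR. It was at 11.6, 14.7 and 14.3 CPM in shAnxa2-CTRL and 7.96, 8.62 and 9.94 CPM in shAnxa2-OGDR. No groups of a line overlapped, and the log2 fold change stood at 0.73 (standard error 0.11) in shCtrl, and Unc13a fell by 0.62 (standard error 0.11, adjusted p = 5.7e-05 from edgeR) in shAnxa2-OGDR. Its gene body overlaps that of Colgalt1 on the other strand, which was at 325.6, 365.6, 291.4 and 310.3 CPM, and a strand setting of the counting is not given in the sources used here, so reads of the overlap cannot be assigned to either gene. Colgalt1 itself had log2 fold changes of 0.17 and 0.09.

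Unc13b (Munc13-2), just inside the filter in 6 libraries, ran from 0.238 to 1.02 CPM and had log2 fold changes of 0.77 (standard error 0.40) and -1.04 (standard error 0.49, adjusted p = 0.0758 from edgeR). Without shAnxa2-CTRL replicate 1, at 0.245 CPM the lowest of its group, Unc13b was called lower (-1.36, adjusted p = 0.0209). Unc13c had at most 2 counts. Of 15 further priming and fusion genes fixed as a list beside the annotation, 4 passed the filter. In shAnxa2-OGDR 1 of them fell and 1 rose, where 26.8% of all tested genes fell and 28.2% rose. Vamp1, a vesicle SNARE gene, rose by 0.36 (standard error 0.10, adjusted p = 0.00425 from edgeR), while Stx1a was at 0.23 (adjusted p = 0.201) and Vamp2 at -0.34 (adjusted p = 0.0823). The neuronal SNARE gene Snap25 and the calcium sensor Syt1 had 0 counts.

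**Figure D2:**
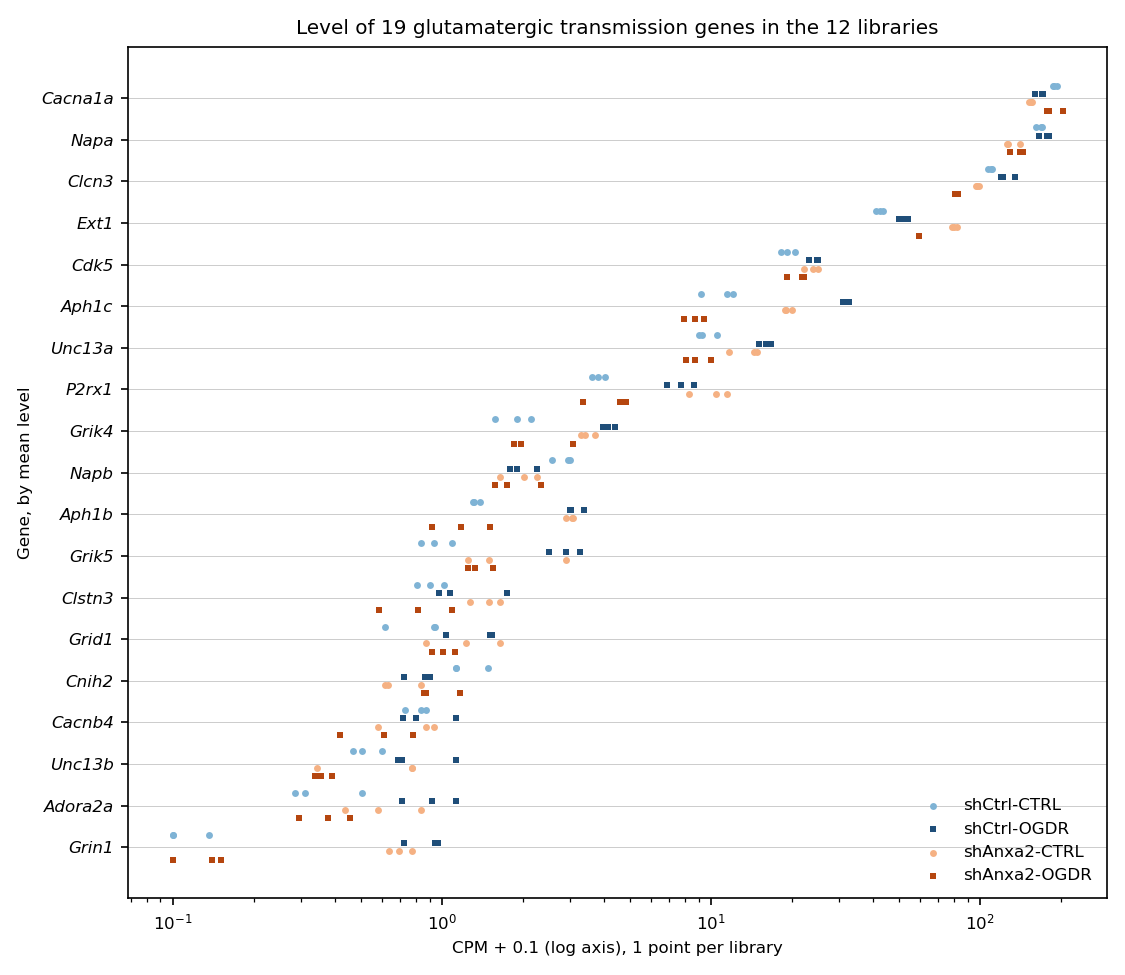
Level of 19 tested members, ordered by mean, on a log axis of CPM + 0.1, with 1 point per library and the 4 groups offset vertically by color. Levels ran from below 0.1 CPM for Grin1 in shCtrl-CTRL to above 150 CPM for Cacna1a in every library.

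Auxiliary, scaffold and adhesion members were few. Cnih2, which encodes a cornichon that escorts AMPA receptors, was at 1.38, 1.03 and 1.03 CPM in shCtrl-CTRL, and 0.626, 0.802 and 0.769 CPM in shCtrl-OGDR. In the knockdown line Cnih2 was at 0.734, 0.529 and 0.516 CPM in the CTRL and 1.07, 0.755 and 0.776 CPM in the OGDR libraries. It was lower in shCtrl-OGDR with groups apart (log2 fold change -0.64, standard error 0.29), and the shAnxa2 value of 0.54 (standard error 0.34) did not pass the test (adjusted p = 0.18 from edgeR). Its body overlaps Yif1a, at 65.9 to 75.7 CPM in the group means, on the other strand. Clstn3 (calsyntenin-3, a synaptic adhesion protein) fell in shAnxa2-OGDR by 0.89 (standard error 0.32, adjusted p = 0.0238 from edgeR), from 1.37 ± 0.189 to 0.731 ± 0.255 CPM. The Clstn3 call was lost without shAnxa2-CTRL replicate 3 (adjusted p = 0.0829), shAnxa2-OGDR replicate 1 (adjusted p = 0.0564) or shAnxa2-OGDR replicate 3 (adjusted p = 0.107). In shCtrl the Clstn3 groups overlapped (log2 fold change 0.52, standard error 0.31). Cnih3 had at most 2 counts and Cdh8 had 0.

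Of 31 further auxiliary, scaffold and adhesion genes outside the annotation, 11 passed the filter. In shAnxa2-OGDR 3 of them fell (27.3%) and 4 rose (36.4%), where 26.8% of all tested genes fell and 28.2% rose. Nlgn2, a postsynaptic adhesion gene, fell by 0.68 (standard error 0.10, adjusted p = 5.35e-06 from edgeR), and Dlg4 (PSD-95) fell by 0.52 (standard error 0.09, adjusted p = 1.96e-05). Cacng8, an AMPA receptor auxiliary subunit gene, rose by 0.59 (standard error 0.16, adjusted p = 0.00239), and Homer3 rose by 0.28 (standard error 0.08, adjusted p = 0.00385).

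The remaining 15 members have roles that are not limited to glutamate synapses, and 12 of them passed. Aph1b and Aph1c, mouse duplicates of a gamma-secretase subunit gene, were among the members with the largest differences. They lie 19504 bases apart on chromosome 9, and the first 90 coding bases of the longest annotated coding transcript of each (GENCODE M21, GRCm38, minus strand) are shown with the 11 mismatched positions in capitals, because near-identical sequence bears on how their reads can be told apart.
Aph1b, chr9:66795276-66795365: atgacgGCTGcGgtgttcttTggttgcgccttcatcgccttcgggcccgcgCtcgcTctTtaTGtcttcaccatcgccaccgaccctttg
Aph1c, chr9:66834509-66834598: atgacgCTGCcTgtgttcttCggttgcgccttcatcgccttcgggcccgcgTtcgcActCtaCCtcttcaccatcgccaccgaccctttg
Over the whole coding sequences of 771 and 774 bases, 95.9% of aligned positions were identical, and 46.7% of all 50-base stretches of Aph1b occur unchanged in Aph1c (36.0% of 100-base stretches), so their separate counts are uncertain.

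Aph1c was at 11.99, 11.4 and 9.08 CPM in shCtrl-CTRL and 32.5, 30.9 and 31.0 CPM in shCtrl-OGDR. It was at 18.7, 19.8 and 18.9 CPM in shAnxa2-CTRL and 7.81, 9.30 and 8.63 CPM in shAnxa2-OGDR. None of these 4 groups overlapped another except the shCtrl-CTRL and shAnxa2-OGDR groups. The log2 fold change was 1.54 (standard error 0.09) in shCtrl, and Aph1c fell by 1.15 (standard error 0.10, adjusted p = 1.4e-09 from edgeR) in shAnxa2-OGDR. Aph1b had a mean of 1.24, 3.03, 2.90 and 1.10 CPM, and the log2 fold change stood at 1.29 (standard error 0.21) in shCtrl, and fell by 1.40 (standard error 0.22, adjusted p = 1e-05 from edgeR) in shAnxa2-OGDR. The flanking genes differed: Car12, left of Aph1b, had log2 fold changes of -1.12 and 0.87, and Rab8b, right of Aph1c, 0.01 and -0.11.

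P2rx1, an ATP-gated channel gene, was at 3.51, 3.70 and 3.93 CPM in shCtrl-CTRL and 8.53, 7.67 and 6.76 CPM in shCtrl-OGDR. It was at 8.22, 11.4 and 10.4 CPM in shAnxa2-CTRL and 4.75, 3.26 and 4.51 CPM in shAnxa2-OGDR. The groups of each line were apart, and P2rx1 fell in shAnxa2-OGDR by 1.27 (standard error 0.15, adjusted p = 1.77e-07 from edgeR) against a log2 fold change of 1.05 (standard error 0.15) in shCtrl. The adenosine receptor gene Adora2a, just inside the filter in 4 libraries, had means of 0.265, 0.819, 0.516 and 0.276 CPM and log2 fold changes of 1.57 (standard error 0.43) and -0.88 (standard error 0.49, adjusted p = 0.131 from edgeR).

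The most abundant members had small differences between the treatment labels within each line. Cacna1a, the P/Q-type calcium channel pore gene, was at 189 ± 3.64, 167 ± 6.35, 154 ± 1.40 and 187 ± 13.5 CPM. It rose in shAnxa2-OGDR by 0.28 (standard error 0.05, adjusted p = 5.6e-05 from edgeR) and was lower in shCtrl-OGDR (-0.17, standard error 0.05).

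Clcn3, an endosomal chloride-proton exchanger gene, was at 109, 125, 97.5 and 81.5 CPM. It fell in shAnxa2-OGDR by 0.26 (standard error 0.05, adjusted p = 0.000118 from edgeR), against 0.20 (standard error 0.05) in shCtrl. Ext1, a heparan sulfate polymerase gene, was at 42.2, 52.1, 80.0 and 59.1 CPM and fell in shAnxa2-OGDR by 0.44 (standard error 0.05, adjusted p = 1.8e-07), against 0.30 (standard error 0.05) in shCtrl. Ext1 was the 1 tested member higher in shAnxa2 than in shCtrl under both treatment labels with groups apart, at log2 fold changes of 0.92 in CTRL and 0.18 in OGDR.

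Cdk5, a kinase of neuronal development and synaptic function, had 19.2, 24.3, 23.6 and 20.9 CPM, with log2 fold changes of 0.34 (standard error 0.08) and -0.17 (standard error 0.08, adjusted p = 0.0736 from edgeR). Cacnb4, a calcium channel beta subunit gene, ran from 0.318 to 1.03 CPM with overlapping groups in both lines, at 0.16 (standard error 0.34) and -0.47 (standard error 0.40, adjusted p = 0.334 from edgeR). Plat, the tissue plasminogen activator gene, had at most 7 counts, and Shc3 and Dcdc2a had 0.

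**Figure D3:**
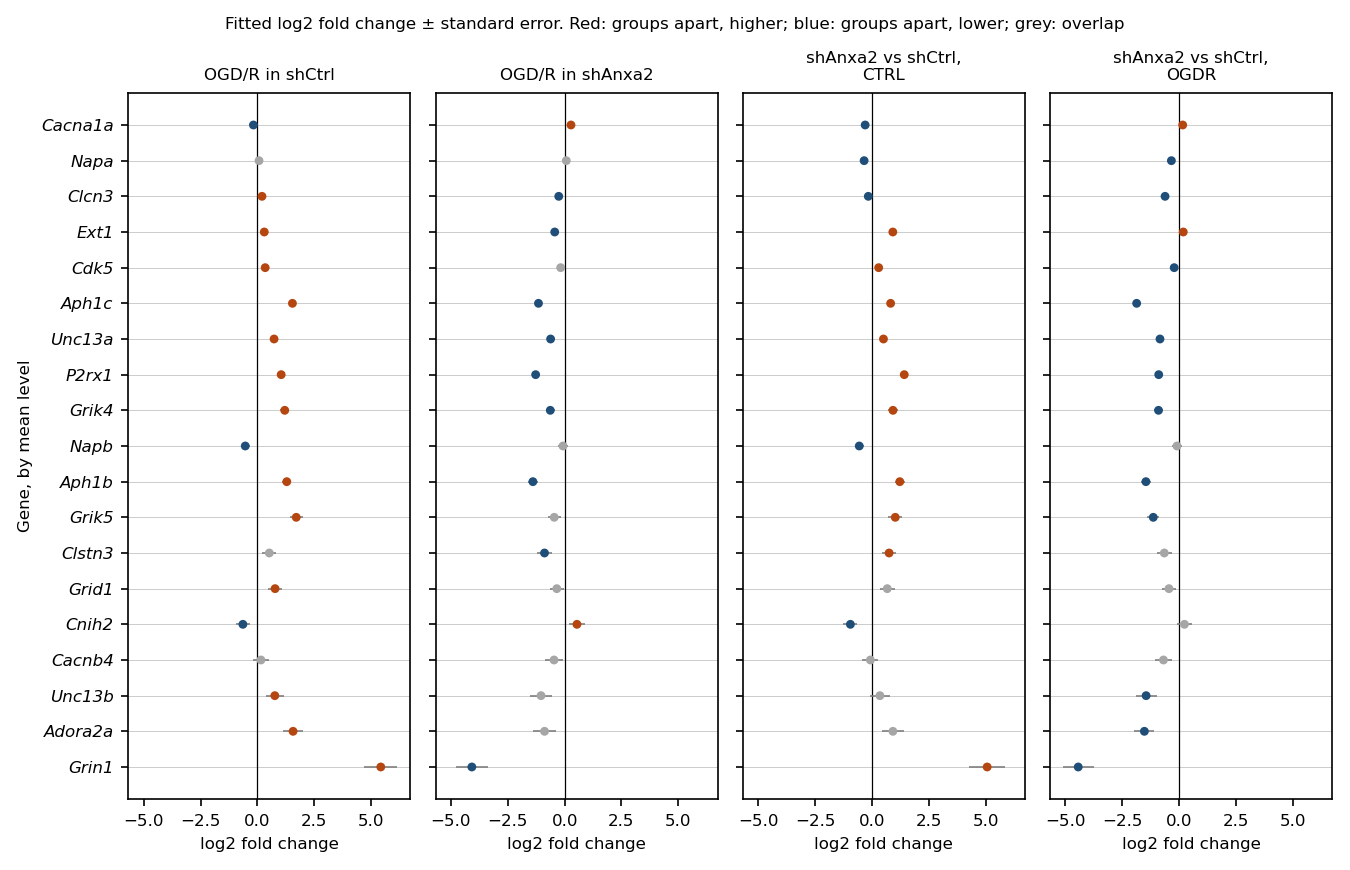
Fitted log2 fold change ± standard error of 19 tested members for OGD/R in each line and for shAnxa2 against shCtrl under each treatment label, with red for groups apart and higher, blue for apart and lower and grey for overlapping. Grin1, from 5.43 to -4.44, lies farthest from 0 in all 4 panels, and the abundant genes at the top lie within 1 of it.

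Counts over the tested members in shCtrl describe the comparison that chose the annotation, and nothing is read from them. Of the 22 tested, 15 were higher and 4 lower in shCtrl-OGDR than in shCtrl-CTRL with groups that did not overlap, where 34.7% and 33.3% of all tested genes were. At the limits used for the choice (p under 0.05, log2 fold change of at least 1), 8 were higher (Grin1, Grik4, Grik5, Aph1c, Aph1b, P2rx1 and Adora2a among them), where 4.7% of all tested genes were. The median log2 fold change was 0.63, against 0.0045 over all genes, and 0.38 among the 19 members with at least 10 libraries at the minimum.

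In the shAnxa2 line, whose libraries the choice did not use, 10 of the 22 fell and 2 rose in OGDR against CTRL (adjusted p under 0.05 from edgeR), where 26.8% of all tested genes fell, 28.2% rose and 55% were called in either direction. Those that fell included Grik4, Aph1b, Aph1c, P2rx1, Unc13a, Clstn3, Clcn3 and Ext1, and those that rose included Cacna1a. Groups were apart for 3 members higher and 10 lower (30.1% and 28.8% of all tested genes). Grin1 is in both counts of 10, but it passed the filter only through the groups where it was high, so its difference is a description. The median log2 fold change was -0.46, against 0.0044 over all genes. Of all genes tested, 82.0% had changes of opposite sign in the 2 lines (Pearson's r = -0.80 across genes). Genes chosen as higher in shCtrl-OGDR would thus tend to be lower in shAnxa2-OGDR. The shares of all genes do not allow for that. The 3 members Grin1, Adora2a and Unc13b had under 10 libraries at the minimum and passed largely through the groups where they were high. Among the 19 with at least 10 such libraries, 9 fell and 2 rose, with a median of -0.44. Groups were apart in both lines and opposite for 9 members higher in shCtrl-OGDR and lower in shAnxa2-OGDR (23.1% of all tested genes) and for 3 members lower and then higher (23.5%). Of all tested genes, 4036 were higher in shCtrl-OGDR with groups apart, and 2691 of them were lower in shAnxa2-OGDR with groups apart. Among the members these numbers were 15 and 9, so the reversal was not particular to them. The difference between the lines was not tested. In bulk RNA, fewer cells of a type and less RNA per cell cannot be told apart.

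The comparisons between the lines use the same libraries and are given side by side with no test. Under the CTRL label, 11 members were higher and 6 lower in shAnxa2 with groups apart (31.6% and 32% of all tested genes). Under the OGDR label, 2 were higher and 15 lower (34.6% and 35.3%). The largest differences under the OGDR label were in Grin1 (-4.44, standard error 0.68), Aph1c (-1.87, standard error 0.10), Adora2a (-1.53, standard error 0.44), Aph1b (-1.46, standard error 0.22) and Unc13b (-1.45, standard error 0.46). Under the CTRL label they were in Grin1 (5.07, standard error 0.78), P2rx1 (1.42, standard error 0.15), Aph1b (1.23, standard error 0.21) and Grik5 (1.03, standard error 0.30).

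These line comparisons depend on the shAnxa2 treatment titles, so the lines were also set side by side across titles, a pairing added after the values were seen and given with no test. Between shAnxa2-OGDR and shCtrl-CTRL, 2 members were higher and 5 lower in shAnxa2 with groups apart (26.8% and 22.5% of all tested genes), with a median log2 fold change of -0.09. Between shAnxa2-CTRL and shCtrl-OGDR, 1 was higher and 9 lower (25.9% and 26.3%), with a median of -0.29. Grin1 overlapped in both pairs, at 0.0303 against 0.0122 CPM and at 0.602 against 0.779 CPM. Aph1c was at -0.33 with overlapping groups in the first pair and at -0.72 with groups apart in the second. Napa and Clcn3 were lower and Ext1 higher in shAnxa2 with groups apart in both pairs, as they were under matched titles.

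Levels between genes were compared per kilobase of annotated exon, as the mean over the 12 libraries. Napa led with 40.3 CPM per kb, followed by Cacna1a (15.3), Cdk5 (10.1), Ext1 (7.22) and, among the members named here, Clcn3 (6.05). Aph1c was at 3.36 CPM per kb and P2rx1 at 2.43. The receptor subunits were lower, with Grik4 at 0.478, Grik5 at 0.324, Grid1 at 0.170 and Grin1 at 0.0367 CPM per kb. The 4 most abundant members, Cacna1a, Napa and Clcn3 among them, took 78.1% of the members' summed CPM.

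Genes that handle glutamate outside the vesicle were taken from a list written beside the annotation. Of 24 such genes, 19 passed the filter, and 10 rose and 5 fell in shAnxa2-OGDR (28.2% and 26.8% of all tested genes did), with a median log2 fold change of 0.19. Of the 18 with at least 10 libraries at the minimum, 9 rose and 5 fell. Slc7a11, the cystine-glutamate exchanger subunit through which microglia release glutamate, was at 15.2 ± 1.77, 40.3 ± 3.82, 52.8 ± 5.93 and 20.9 ± 3.41 CPM. It fell in shAnxa2-OGDR by 1.34 (standard error 0.10, adjusted p = 1.65e-10 from edgeR), against 1.41 in shCtrl. Its partner gene Slc3a2 rose in shAnxa2-OGDR by 0.22 (standard error 0.05, adjusted p = 0.000368).

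Gpt2, a mitochondrial aminotransferase gene, was at 41.7, 105, 80.6 and 40.3 CPM and fell by 1.00 (standard error 0.06, adjusted p = 5.67e-12 from edgeR) in shAnxa2-OGDR, against 1.33 in shCtrl. The mitochondrial glutamate carrier gene Slc25a22 rose by 0.90 (standard error 0.08, adjusted p = 7.45e-10), and the glutamine transporter genes Slc38a1 and Slc1a5 rose by 0.40 (standard error 0.04, adjusted p = 5.57e-08) and 0.32 (standard error 0.05, adjusted p = 6.16e-06). The glial uptake carrier gene Slc1a3 had at most 2 counts and the neuronal carrier gene Slc1a1 at most 3. Slc1a2, the other glial carrier gene, had means of 0.121 ± 0.0253 and 0.686 ± 0.147 CPM in the shAnxa2 libraries labelled CTRL and OGDR. It is counted among the 10, but it reached the minimum in only 4 libraries, the 3 of shAnxa2-OGDR and 1 of shCtrl-OGDR, and passed the filter through the group where it was high, so its difference is a description.

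**Figure D4:**
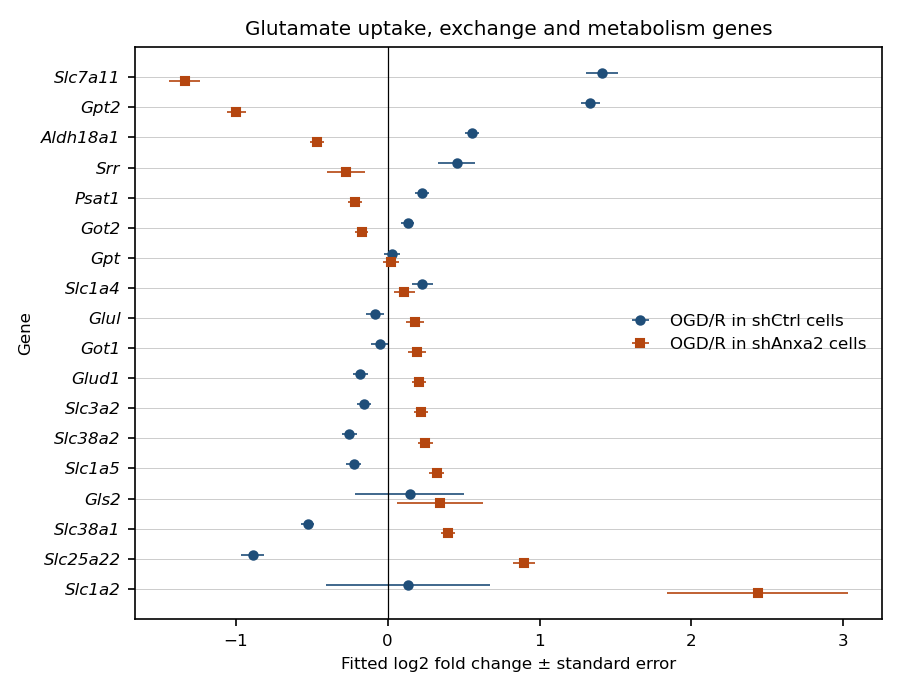
Fitted log2 fold change ± standard error of 18 tested glutamate uptake, exchange and metabolism genes for OGD/R in shCtrl (blue circles) and shAnxa2 cells (red squares). Slc7a11 and Gpt2 lie right of 0 in shCtrl and left of 0 in shAnxa2, and Slc38a1 and Slc25a22 lie the other way.

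Other synaptic annotations had medians close to that of all genes. Of all genes tested, 28.2% rose and 26.8% fell in shAnxa2-OGDR. Of 102 genes of the KEGG glutamatergic synapse that are not members, 52 passed. Of these, 12 rose (23.1%) and 16 fell (30.8%), with a median log2 fold change of 0.01. Of 164 further genes of chemical synaptic transmission, 46 passed, with 9 that rose (19.6%), 13 that fell (28.3%) and a median of 0.01. Of 24 further genes that regulate glutamatergic transmission, 11 passed, with 5 that rose (45.5%) and 3 that fell (27.3%). Of 15 GABAergic transmission genes only 2 passed, with no call in either direction. In shCtrl the median log2 fold changes were 0.12 for the KEGG list, 0.09 for chemical transmission and -0.12 for regulation of glutamatergic transmission. The members, whose annotation was chosen by that comparison, were at 0.63. A difference between the members and these lists in shAnxa2 is thus not independent of the choice.

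**Figure D5:**
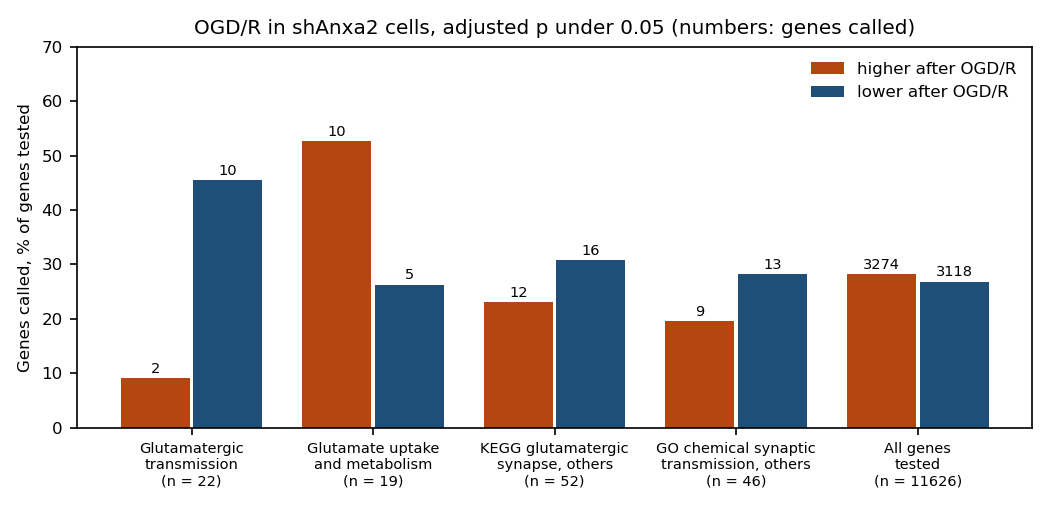
Share of tested genes called higher (red) or lower (blue) in shAnxa2-OGDR against shAnxa2-CTRL at an adjusted p under 0.05, with the number of genes called above each bar. The 22 members had 10 lower (45.5%) and 2 higher (9.1%), while all 11626 genes had 3118 lower (26.8%) and 3274 higher (28.2%). The annotation was chosen by higher counts in shCtrl-OGDR, and most genes changed in opposite directions in the 2 lines. The members' directions are thus not independent of the choice. The 10 include Grin1, which passed the filter only through the groups where it was high.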

How the data were processed

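BV2 RNA was sequenced in 12 libraries, 3 in each of 4 groups taken from the titles. The authors deposited raw counts of reads per gene for 21834 genes, without normalization. The submitters' processing notes name HISAT2 2.0.4 and mm39, and the sequencing methods of the paper, which describe hippocampal samples, use Tophat with HTSeq. The strand setting is not given in the sources used here. The table's 12 columns of size-factor normalized values were not used. Members were the rows annotated to glutamatergic synaptic transmission. The members, lists and tests were chosen with earlier results of these data known.

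Genes with at least 0.5 CPM in at least 3 libraries (11626) were fitted in 1 quasi-likelihood model with TMM scaling over all 12 libraries (edgeR 4.0.16, R 4.3.3). P-values were Benjamini-Hochberg adjusted over all genes tested. Only OGDR against CTRL in shAnxa2 was tested, because every other comparison uses libraries of the contrast that chose the annotation. Changes in shAnxa2 were opposite in sign to those in shCtrl for most genes, so the members' directions there are not independent of the choice. The standard error was the size of the log2 fold change divided by the square root of F. CPM values use the tested genes' counts and TMM factors. Replicates were biological per the study's methods, and their counts differed by a chi-square per gene of 3.89 to 12.7. The common biological coefficient of variation was 5.35%. The count ratio of Grin1 in shAnxa2 has an exact 95% interval for counting error only. On simulated counts for the shAnxa2 contrast (11489 genes), 96.0% of 99 genes changed by a log2 fold change of 1 and 99.0% of 99 changed by 2 were called. Of the unchanged genes, 14 were called. Every gene was drawn with the common coefficient of variation and few were changed, unlike the data, where 55% were called. These shares therefore do not carry over to members at low counts.

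Of the 22 members tested, 19 are named; some genes counted in the lists are not reported here by name. Alternatives were median-of-ratios size factors, library totals, no filter, a filter of 1 CPM, DESeq2 1.42.0, voom (limma 3.58.1), a replicate block, fits of only the groups compared and leaving out each library. Restriction to members with at least 10 libraries at the minimum was chosen after seeing the data. Sequences came from RefSeq and GENCODE M21, both GRCm38, and were not mixed with the table's coordinates. Plots were drawn in Python 3.11.15 with matplotlib 3.10.9.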

Additional observations from a re-analysis of the deposited data

Results flagged for a closer look

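For 10 members reported here, every library of one treatment label lay on one side of the other label in shCtrl cells and on the opposite side in shAnxa2 cells. The difference between the lines was not tested, and of all genes tested 23.1% were higher in shCtrl-OGDR and lower in shAnxa2-OGDR in this way, and 23.5% the reverse. These shares do not allow for the choice of the annotation by higher counts in shCtrl-OGDR. Of the 4036 tested genes higher in shCtrl-OGDR with groups apart, 2691 were lower in shAnxa2-OGDR with groups apart. In shAnxa2 cells the log2 fold changes of the 8 that were lower in OGDR were -4.08 for Grin1, which passed the filter only through the groups where it was high, -1.40 for Aph1b, -1.27 for P2rx1, -1.15 for Aph1c, -0.63 for Grik4, -0.62 for Unc13a, -0.44 for Ext1 and -0.26 for Clcn3. The 2 that were higher in OGDR had 0.54 for Cnih2, which did not pass the test, and 0.28 for Cacna1a.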

How the results depend on the processing

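Under all alternatives run, the 4 member medians kept their sign and 11 to 13 members were called in shAnxa2, with 9 to 11 lower and 2 higher. The number tested varied with the filter. Of 18 members tested at 1 CPM 11 were called, of 20 with only the groups compared 12, and of 31 with no filter 13. In the main fit 55% of all tested genes were called. With only the members at the minimum in at least 10 libraries, chosen after seeing the data, the shCtrl median was 0.38 against 0.63. Leaving out 1 library at a time gave medians of 0.55 to 0.69 for OGDR against CTRL in shCtrl, -0.61 to -0.39 in shAnxa2, 0.42 to 0.61 for shAnxa2 against shCtrl in CTRL, where the lowest came without shAnxa2-CTRL replicate 3, and -0.78 to -0.67 in OGDR. In these leave-one-out fits the shAnxa2 log2 fold change ran from -0.71 to 0.0072 for Grik5, above 0 only without shAnxa2-CTRL replicate 1, and from -0.26 to 0.056 for Napb, above 0 without that library (0.036) or shAnxa2-OGDR replicate 2. None of the values with the turned sign was called. Cdk5 was called lower under library totals (adjusted p = 0.0409), with no filter (adjusted p = 0.0499) and without shAnxa2-CTRL replicate 3 (adjusted p = 0.0402) or shAnxa2-OGDR replicate 3 (adjusted p = 0.0454), all from edgeR. The cause of these changes was not tested.

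The replicate number was not treated as a pairing. Correlations of same-numbered deviations ran from -0.051 to 0.135, the highest between the shAnxa2 groups in replicate 3. Such correlations cannot exclude a shared batch. With the replicate block the shAnxa2 median was -0.45. Depth limits the genes under 1 CPM most, where 1 group can hold 0 to 2 counts.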
